A study of Rattus norvegicus with 29 samples.

Results

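Ganglia of stroke rats that received neurotrophin-3 (NT3) were compared between week 11 and week 5. The 10 libraries were those labelled stroke and NT3 out of 29 in the series: 5 from week 11 (rats 36, 69, 71, 83 and 89) and 5 from week 5 (rats 25, 56, 61, 62 and 85). The rats at each week were different animals, so the comparison was unpaired. All animals were elderly Lister Hooded rats with a unilateral cortical stroke followed by NT3 infused under the skin, and RNA came from whole dorsal root ganglia C6 to C8 of the affected side, 1 library per rat. The other libraries came from stroke rats with vehicle infusion (5 at week 11, 5 at week 5) and from rats labelled sham (5 at week 11, 4 at week 5), whom the series text calls naïve. The labels give the week as a number without its starting point, and the dose and the length of the infusion are not given in the sources used here. Time after stroke, time since the infusion and the age of the rats therefore cannot be told apart in this comparison.

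NT3 is a secreted growth factor of the neurotrophin family. Its main receptor, the kinase TrkC encoded by Ntrk3, marks the large proprioceptive neurons that report muscle stretch, and muscle-derived NT3 keeps these neurons alive during development. A dorsal root ganglion holds the cell bodies of proprioceptors, touch neurons and pain neurons, each wrapped by satellite glia, with Schwann cells along the axons, blood vessels, connective tissue and resident macrophages between them. Counts from whole ganglia cannot separate fewer cells of a type from less RNA per cell.

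Reads assigned to annotated transcripts numbered 17468645 to 21696052 in the NT3 libraries and averaged nearly the same at both weeks (exact permutation p = 0.937, two-sided, where the smallest p possible was 0.00794). Reads falling outside annotated features made up 32.3% ± 1.95 at week 11 and 32.8% ± 1.77 at week 5 (SD, n = 5 each; exact permutation p = 0.667). Neuronal identity of the tissue was plain: Nefl, the light neurofilament chain, was at 3256 ± 177 CPM in NT3 week 11 ganglia and 3314 ± 143 CPM in NT3 week 5 ganglia (SD, n = 5 each). On the first principal component of log2 expression, which held 44% of the variance over all libraries, week 11 rat 69 (-36.5) and week 5 rat 61 (-26.3) lay apart from the other 8 NT3 libraries (-5.2 to 25.5). The 2 weeks overlapped on it (exact permutation p = 0.802). Several results are given with and without rat 69, or with and without rat 89, whose library held red cell transcripts.

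No transcript passed the test between the weeks. EdgeR's quasi-likelihood test, fitted to all 29 libraries, called 0 of 12556 transcripts (0%) in NT3 week 11 against NT3 week 5 at a Benjamini-Hochberg adjusted p under 0.05, and the smallest adjusted p was 0.9996. DESeq2 and limma voom with quality weights also called 0. At an unadjusted p under 0.05 edgeR listed 198 transcripts (1.58%), 155 higher at week 11 (1.23%) and 43 lower (0.342%). That share was below the 0.05 that unchanged transcripts would give by chance. Without rats 61, 69 and 89, which was tried after the values were seen, 44 were higher and 54 lower. In 58 transcripts all 5 week 11 libraries lay above all 5 week 5 libraries in counts scaled to a common library size (CPM; 0.462%), and in 64 all 5 lay below (0.51%). The median log2 fold change over all tested transcripts was 0.00, and 50.8% were positive.

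The same test in the other arms gave 106 calls in vehicle ganglia (0.844%), 104 higher and 2 lower at week 11, and 0 calls in sham ganglia (0%). The vehicle count was 24, all higher, without vehicle week 11 rat 27, the shallowest library, and sham week 11 rat 8, which had the lowest share of reads outside features. Small p-values were fewer in NT3 ganglia than in either other arm: 198 transcripts were under 0.05, against 1107 in vehicle and 468 in sham ganglia, and 1003 NT3 transcripts had a p above 0.95, against 627 and 645. All arms shared 1 estimate of the spread in this fit. When only the 10 NT3 libraries entered, 526 transcripts were under 0.05 and 0 were called.

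**Figure D1:**
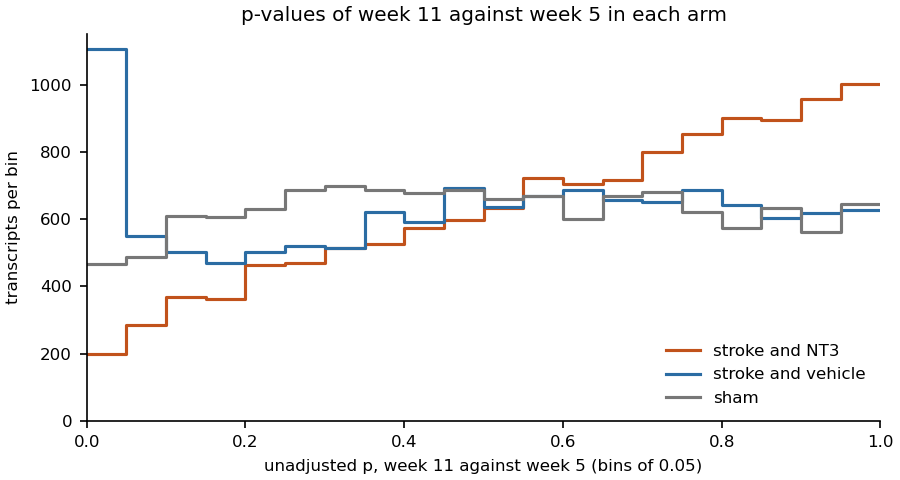
Number of transcripts (vertical axis) in each 0.05-wide bin of the unadjusted p of week 11 against week 5 (horizontal axis), one line per arm. The NT3 line starts at 198 and ends at 1003, while the vehicle line starts at 1107.

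For most transcripts the test left fairly narrow limits on what could have been missed. The 95% interval of the log2 fold change lay within a 2-fold change either way for 11808 of 12556 transcripts (94%) and within 1.5-fold for 9488 (75.6%). These intervals are per transcript and are not adjusted for their number. In what follows no gene named passed the adjusted threshold between the NT3 weeks (edgeR adjusted p of at least 0.9996 each), intervals are the unadjusted 95% intervals of the edgeR fit, and log2 fold changes are week 11 over week 5 in NT3 ganglia unless another arm is named. Genes are named by symbol, and those described rat by rat also by the RefSeq accession of the counted transcript. Rat by rat values follow the order in which the rats are listed above. Where a gene has several transcripts, the one with the most reads is given.

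The neurotrophin receptor genes described here had similar levels at both weeks. Ngfr (NM_012610), the low-affinity receptor shared by all neurotrophins, was at 931, 986, 884, 794 and 785 CPM in NT3 week 11 ganglia, against 803, 983, 1080, 828 and 782 CPM in NT3 week 5 ganglia. The groups overlapped, and its log2 fold change was -0.03 (95% interval -0.30 to 0.24). For Ntrk2, which binds brain-derived neurotrophic factor, the counted transcript NM_001163168 was at 327 ± 19.5 CPM in NT3 week 11 ganglia and 323 ± 31.2 CPM in NT3 week 5 ganglia (SD, n = 5 each), and its fold change was 0.02 (95% interval -0.23 to 0.26). NT3's own gene Ntf3 had 0 reads over its 4 transcripts, and Ntrk3 had 0 reads over 3 transcripts in the NT3 libraries. Both genes are listed with several transcripts. Of the 506 genes listed so, 20.4% had 0 reads in all 29 libraries, against 10.3% of those listed with 1 transcript, although Ntrk2 is listed with 2. Whether reads shared between transcripts were lost in counting was not tested. No level is therefore given for these genes, nor for Etv1, a proprioceptor transcription factor gene with 40 reads over the 10 libraries.

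Of the 17 transcripts tested from the neurotrophin list (ligands, receptors and adaptors), 11 had positive fold changes, with a median of 0.02, and none was called. At an unadjusted p under 0.05, 1 was higher, where 1.23% of all tested transcripts were, and the largest fold change of the list was 0.61.

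The proprioceptive neuron markers Calb2 and Pvalb averaged below the week 5 level. Calb2 (NM_053988), which encodes the calcium-binding protein calretinin and is found in part of these neurons, was at 113, 104, 136, 121 and 124 CPM in NT3 week 11 ganglia, against 156, 151, 138, 151 and 139 CPM in NT3 week 5 ganglia. All 5 week 11 ganglia lay below all 5 week 5 ganglia, with a fold change of -0.30 (95% interval -0.51 to -0.08). Pvalb (NM_022499), the parvalbumin gene and the most used marker of the class, was at 149, 144, 165, 151 and 169 CPM in NT3 week 11 ganglia, against 216, 170, 166, 160 and 167 CPM in NT3 week 5 ganglia. Its groups overlapped, rat 25 was the highest of the week 5 animals, and the fold change was -0.18 (95% interval -0.41 to 0.06), or -0.09 without that rat. The related calbindin gene Calb1 (NM_031984), placed here among touch neuron markers, was at 2.5, 2.96, 4.37, 2.75 and 2.97 CPM in NT3 week 11 ganglia, against 4.08, 5.01, 3.85, 3.38 and 3.64 CPM in NT3 week 5 ganglia. It overlapped between weeks, with a fold change of -0.36 (95% interval -0.69 to -0.03).

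The other proprioceptor markers lay on either side of 0. Spp1, which encodes osteopontin, was at 1192 ± 75.4 CPM in NT3 week 11 ganglia and 1169 ± 150 CPM in NT3 week 5 ganglia (SD, n = 5 each), a fold change of 0.03 (SE 0.10). Runx3, a transcription factor of the lineage, had 0.18 (SE 0.33), with a wide interval of -0.49 to 0.86 at its low count. Slc17a7, the vesicular glutamate transporter of large sensory neurons, had 0.02 (SE 0.09), and Pou4f3 had -0.12 (SE 0.11). Over the list of 13 tested markers 7 were positive, the median was 0.00 and none was called. At an unadjusted p under 0.05, 1 was lower (Calb2), where 0.342% of all tested transcripts were. The mean log2 CPM over the list was 6.83, 6.62, 6.88, 6.71 and 6.71 in NT3 week 11 ganglia, against 6.76, 6.87, 6.71, 6.82 and 6.73 in NT3 week 5 ganglia, and the 2 sets interleaved. The medians in the vehicle and sham arms were -0.10 and 0.11.

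Pain and touch neuron markers centred near 0. Peptidergic nociceptor markers had 4 of 11 positive fold changes and a median of -0.01, non-peptidergic and itch neuron markers 4 of 10 and -0.01, and touch neuron markers 5 of 12 and -0.02. Trpv1, the capsaicin receptor, was at 176 to 217 CPM at week 11 and 175 to 234 CPM at week 5, with a fold change of 0.00 (SE 0.09). Scn10a, the sodium channel Nav1.8 of pain neurons, was at 822 to 1040 CPM at week 11 and 754 to 1160 CPM at week 5 with 0.02 (SE 0.15), and Mrgprd, a receptor of non-peptidergic pain neurons, at 20 to 32.2 CPM at week 11 and 16.4 to 29.5 CPM at week 5 with 0.08 (SE 0.21). Gfra1, a co-receptor of glial cell line-derived neurotrophic factor, had 0.07 (SE 0.08) and Ret, the shared signalling receptor of that family, -0.06 (SE 0.09) for its counted transcript NM_012643. Artn, a ligand of the same family that is made outside the neurons, was at 0.692, 0.799, 0.644, 0.605 and 0.628 CPM in NT3 week 11 ganglia, against 0.551, 0.389, 0.438, 0.448 and 0.519 CPM in NT3 week 5 ganglia. Its week 11 values all lay above its week 5 values, at under 1 CPM in every library, with a fold change of 0.53, and edgeR's test left it above the unadjusted 0.05 level.

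**Figure D2:**
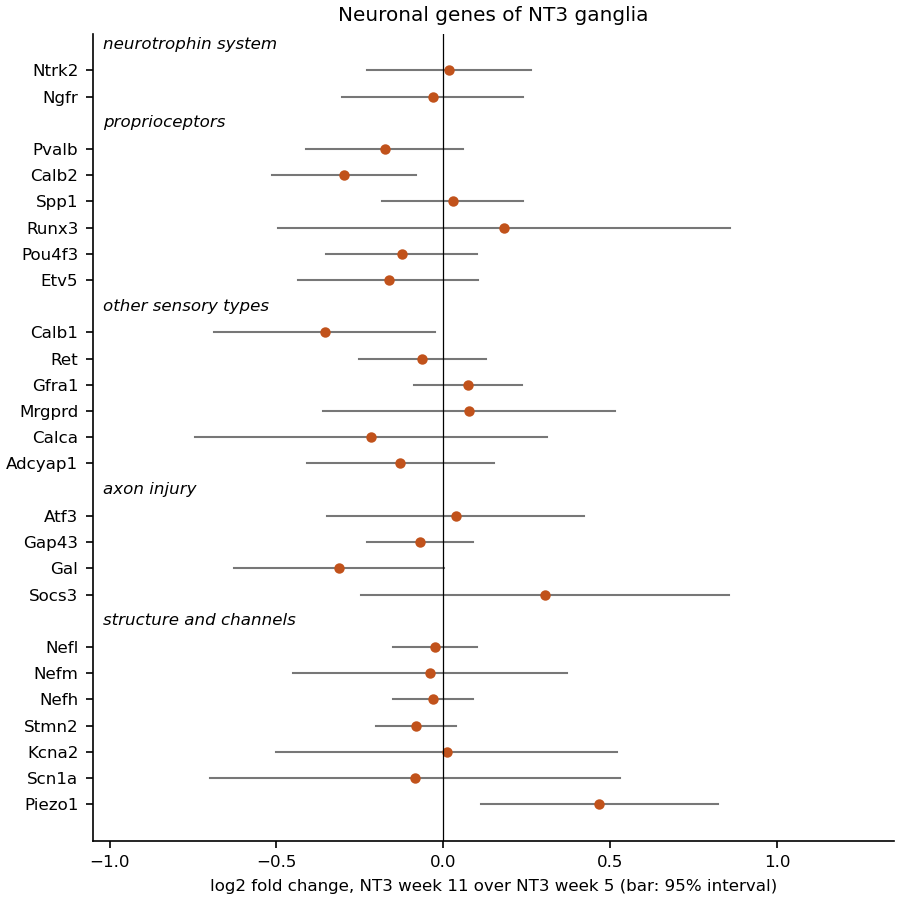
Log2 fold change of NT3 week 11 over NT3 week 5 (horizontal axis) for 25 neuronal and neurotrophin genes, with the 95% interval from the edgeR fit as a bar and each gene on its own line. Intervals of Piezo1, Calb2 and Calb1 leave out 0, and none of these 3 passed after adjustment.

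Genes that respond to axon injury had no common direction. Atf3 (NM_012912), a transcription factor gene switched on in injured sensory neurons, was at 20.4, 20.4, 24.1, 25.4 and 23.6 CPM in NT3 week 11 ganglia, against 17, 16.3, 14.4, 38.9 and 24.5 CPM in NT3 week 5 ganglia. Week 5 rat 62 was the highest of the 10, the groups overlapped, and the fold change was 0.04 (95% interval -0.35 to 0.42). Gap43, a growth cone protein gene, was at 279 ± 6.61 CPM in NT3 week 11 ganglia and 292 ± 21.3 CPM in NT3 week 5 ganglia (SD, n = 5 each), a fold change of -0.07 (SE 0.08). The neuropeptide gene Gal (NM_033237), galanin, which injured neurons raise, was at 7.83, 9.92, 9.43, 8.19 and 7.94 CPM in NT3 week 11 ganglia, against 9.75, 9.58, 10.4, 12.9 and 11.3 CPM in NT3 week 5 ganglia. It lay lower on average at week 11, with overlap, and its fold change was -0.31 (95% interval -0.63 to 0.00). Csrp3, a muscle LIM protein gene seen in regenerating neurons, had the lowest fold change of the list at -1.40 (95% interval -2.56 to -0.24), at 0.213, 0.329, 0.506, 0.33 and 0.4 CPM at week 11 and 0.937, 0.632, 0.341, 2.49 and 0.346 CPM at week 5, and -0.64 without rat 62. Over the 23 tested injury genes the median was 0.03, 14 were positive and none was called. At an unadjusted p under 0.05, 1 was lower (Csrp3), where 0.342% of all tested transcripts were.

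Neuronal structure and excitability genes centred near 0 as well. The neurofilament genes Nefl, Nefm and Nefh had fold changes of -0.03, -0.04 and -0.03, and Stmn2, a microtubule regulator of axons, -0.08 (SE 0.06). Nefm was at 4480, 2780, 4580, 4800 and 4440 CPM at week 11 and 4830, 4190, 2950, 4760 and 4930 CPM at week 5, so rats 69 and 61, the outlying libraries on the first component, were the lowest of their weeks. The sodium channel gene Scn1a followed the same libraries, at 344, 174, 388, 406 and 374 CPM at week 11 and 452, 344, 217, 392 and 383 CPM at week 5, with a fold change of -0.08 (SE 0.30). Lists of sodium channels (4 of 10 positive, median -0.01), potassium channels (21 of 46, -0.01) and synaptic vesicle genes (24 of 43, 0.00) were centred on 0. Kcna2, a potassium channel of myelinated axons, was at 50.4 to 98.5 CPM at week 11 and 56.2 to 95.1 CPM at week 5 and had a fold change of 0.01 (SE 0.25). Neuropeptide and peptide-processing genes lay lower more often than higher, 16 of 21 negative with a median of -0.08, none of them under the unadjusted 0.05 level.

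Piezo1 (NM_001077200), a mechanically gated channel also found in vessels and glia, was the sensory channel gene with the largest fold change. It was at 24.2, 31.3, 25, 26 and 24.3 CPM in NT3 week 11 ganglia, against 17.4, 18.3, 17.3, 19.3 and 22.3 CPM in NT3 week 5 ganglia, every week 11 ganglion above every week 5 ganglion. The fold change was 0.47 (95% interval 0.11 to 0.82), and 0.38 without rat 69. Vehicle ganglia had a log2 fold change of 0.53 and sham ganglia 0.21, and the NT3 value minus the vehicle value was -0.06 (SE 0.24). The other 20 tested channels of that list (TRP, P2X, Piezo and ASIC) had a median of -0.01. Among them P2rx4, an ATP-gated channel gene with 0.09 (SE 0.07), also showed no overlap between weeks. With Piezo1, 2 of the 21 tested channels lay wholly above the week 5 libraries, where 0.462% of all tested transcripts did. Over the alternative settings of edgeR, DESeq2 and limma voom the unadjusted p of P2rx4 ran from 0.117 to 0.442.

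Myelin genes lay mostly above the week 5 level. Of 21 tested markers of myelinating Schwann cells 19 had a positive fold change, with a median of 0.13, against 50.8% positive and a median of 0.00 over all transcripts. At an unadjusted p under 0.05, 4 were higher (Cldn19, Prx, Gldn and Fa2h), where 1.23% of all tested transcripts were, and none was called. Cldn19 (NM_001008514), a claudin that seals the myelin sheath of Schwann cells, was at 67.9, 90.3, 82.7, 65.4 and 58.5 CPM in NT3 week 11 ganglia, against 53.1, 50.9, 55.1, 58 and 59.6 CPM in NT3 week 5 ganglia. Rats 36, 69, 71 and 83 lay above every week 5 rat, while week 11 rat 89 lay inside the week 5 range. The fold change was 0.40 (95% interval 0.16 to 0.64), and 0.30 without rat 69.

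Prx (NM_023976), periaxin, a scaffold protein of the sheath, was at 584, 732, 664, 623 and 449 CPM in NT3 week 11 ganglia, against 468, 436, 503, 496 and 474 CPM in NT3 week 5 ganglia. Again rats 36, 69, 71 and 83 lay above every week 5 rat and rat 89 lay among them, with a fold change of 0.36 (95% interval 0.09 to 0.63). Gldn, gliomedin, which Schwann cells use to gather sodium channels at nodes, had 0.27 (95% interval 0.01 to 0.54), or 0.17 without rat 69, and Fa2h, which makes hydroxylated myelin lipids, 0.18 (95% interval 0.00 to 0.37). Cnp, a myelin enzyme gene, was at 282, 322, 290, 287 and 272 CPM at week 11 and 226, 237, 266, 272 and 266 CPM at week 5, the weeks meeting at 272 CPM, and had 0.20 (95% interval -0.01 to 0.41). Ncmap and Mag, 2 myelin protein genes, had 0.48 (SE 0.23) and 0.45 (SE 0.24), or 0.32 and 0.34 without rat 69. Prx, Fa2h and Cnp also had smaller fold changes without rat 69, at 0.277, 0.125 and 0.148.

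The mean log2 CPM over the myelin list was 6.50, 6.68, 6.70, 6.55 and 6.40 in NT3 week 11 ganglia, against 6.47, 6.24, 6.30, 6.44 and 6.52 in NT3 week 5 ganglia, and 3 of the 5 week 11 values lay above all week 5 values. The list, which includes the brain myelin gene Mobp, had a median of 0.21 in vehicle and 0.06 in sham ganglia. In vehicle ganglia rat 27 had a score of 7.10 and the other week 11 rats 6.29 to 6.49, and without rats 8 and 27 the medians were 0.13 in NT3, 0.13 in vehicle and 0.07 in sham ganglia. Satellite glia markers did not share the direction (6 of 17 positive, median -0.03). Sox10, the transcription factor of all these glia, was at 119 to 155 CPM at week 11 and 91.2 to 129 CPM at week 5 with 0.21 (SE 0.15), or 0.12 without week 5 rat 25, and Fabp7, a satellite glia lipid-binding protein gene, at 22.6 to 68.9 CPM at week 11 and 41.8 to 85.1 CPM at week 5 with -0.12 (SE 0.35).

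**Figure D3:**
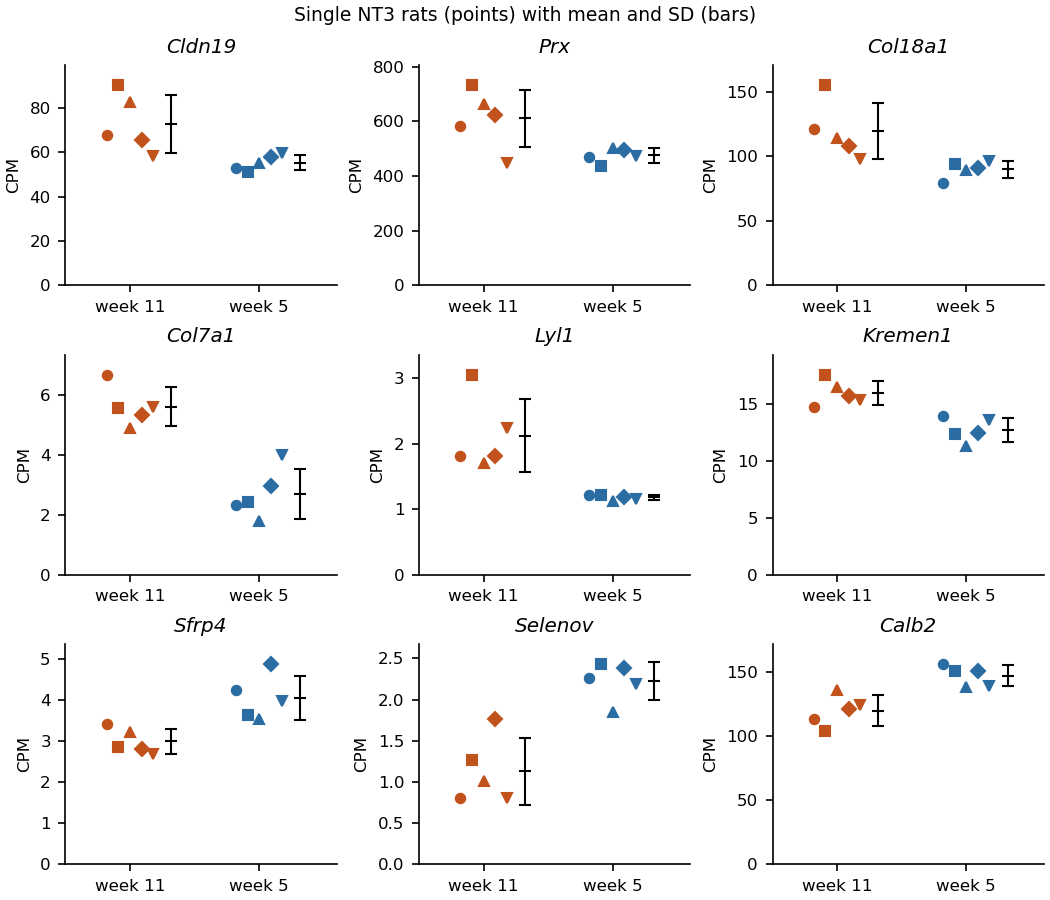
CPM of 9 transcripts (one panel each, vertical axis from 0) in the 5 NT3 week 11 rats on the left and the 5 NT3 week 5 rats on the right of each panel. Each point is 1 rat and the bar beside it is the mean with SD; Col18a1, Col7a1, Lyl1, Kremen1, Sfrp4, Selenov and Calb2 show no overlap, whereas rat 89 of week 11 lies among the week 5 rats for Cldn19 and Prx.

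Macrophage genes also lay mostly above the week 5 level. Of 24 tested markers 22 were positive with a median of 0.38, and none was called. At an unadjusted p under 0.05, 2 were higher, where 1.23% of all tested transcripts were. C1qa (NM_001008515), a chain of the first complement component made by macrophages, was at 33.8, 49.6, 18.7, 31.3 and 29.5 CPM in NT3 week 11 ganglia, against 23.9, 18.6, 20.9, 16.8 and 27.6 CPM in NT3 week 5 ganglia. Groups overlapped, rat 69 was the highest of the 10, and the fold change was 0.60 (95% interval 0.03 to 1.16), and 0.38 without rat 69. Laptm5, a lysosomal protein gene of white blood cells, was at 23.9, 38.8, 21.2, 25.9 and 29.1 CPM at week 11 and 20.7, 17, 18.4, 18 and 25.9 CPM at week 5, 0.47 (95% interval 0.04 to 0.91), and 0.31 without rat 69. Cd68, the lysosomal marker of macrophages, was at 7.46, 13.4, 6.35, 9.18 and 8.85 CPM at week 11 and 5.95, 5.3, 5.7, 4.93 and 10.2 CPM at week 5, a fold change of 0.50 (95% interval -0.03 to 1.03). In both groups 1 animal was high, rat 69 at week 11 and rat 85 at week 5, and the fold change was 0.30 without rat 69.

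The mean log2 CPM over the macrophage list was 3.309, 3.789, 2.947, 3.535 and 3.442 in NT3 week 11 ganglia, against 3.309, 2.907, 3.004, 2.747 and 3.497 in NT3 week 5 ganglia. The list median was 0.24 without rat 69, and without rats 61, 69 and 89 it was 0.22. In the same libraries the neuronal marker list had a mean log2 CPM of 8.35, 7.91, 8.38, 8.37 and 8.22 at week 11 and 8.28, 8.24, 8.12, 8.39 and 8.28 at week 5, with rats 69 and 61 lowest. Whether the outlying position of these 2 rats accounts for part of the glial and immune differences was not tested.

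Vehicle ganglia set a scale for these immune genes. The macrophage list had a median log2 fold change of 0.38 in NT3, 1.31 in vehicle and 0.38 in sham ganglia, antigen presentation genes 0.03, 0.72 and 0.19, and complement genes 0.17, 0.63 and 0.12. In vehicle ganglia, where 0.844% of all transcripts were called, 16 macrophage genes, 5 antigen presentation genes and 6 complement genes rose. Without rats 8 and 27 these counts were 8, 4 and 0, where 24 of all 12531 tested transcripts were called. The vehicle medians without rats 8 and 27 were 0.97 for macrophage, 0.285 for antigen presentation and 0.42 for complement genes, and the sham medians 0.51, 0.18 and 0.22. The NT3 complement median was 0.095 without rat 69. NT3 ganglia spanned macrophage scores of 2.95 to 3.79 mean log2 CPM at week 11 and 2.75 to 3.50 at week 5. Vehicle ganglia spanned 3.23 to 4.58 at week 11 and 2.11 to 2.68 at week 5, and the 5 week 5 vehicle rats had the lowest scores of the 29.

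**Figure D4:**
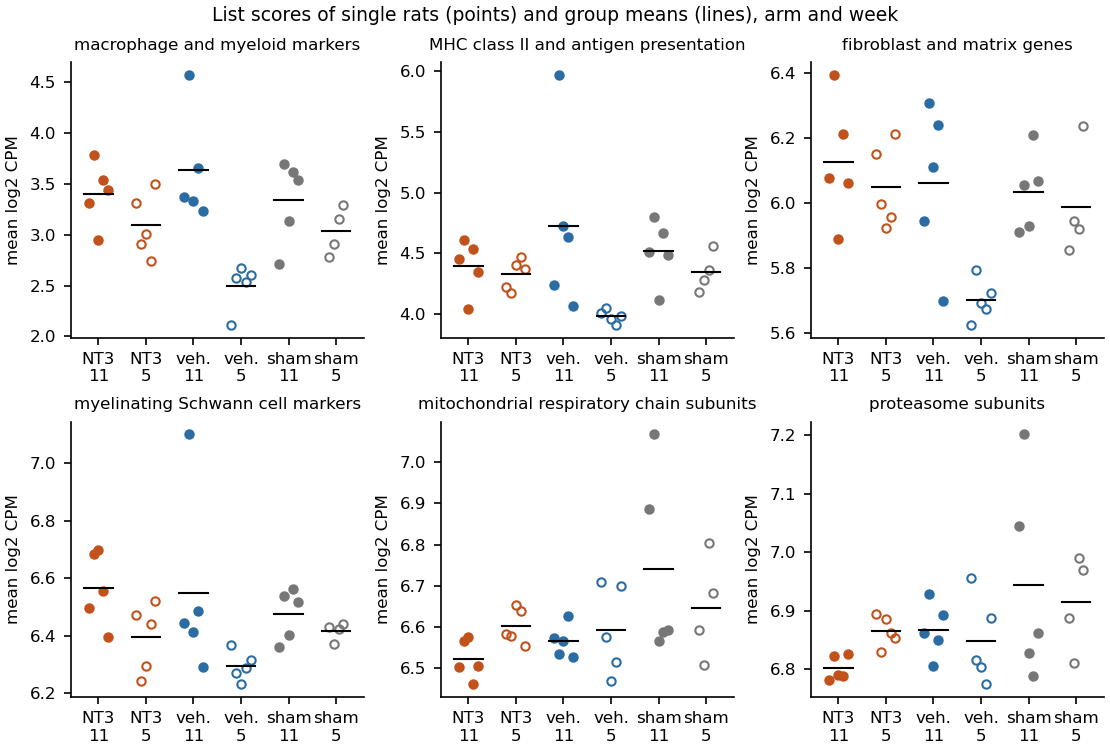
Mean log2 CPM over 6 gene lists (one panel each, vertical axis not starting at 0) in single rats, with NT3, vehicle (veh.) and sham side by side and week 11 left of week 5; black lines are group means. NT3 week 11 proteasome scores (6.781 to 6.826) lie just below the week 5 scores (6.830 to 6.894), and the widest gap between weeks in the macrophage panel is that of vehicle rats.

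The difference between arms was tested directly. For the change over time in NT3 minus that in vehicle, edgeR called 0 of 12556 transcripts (0%), with 101 higher (0.804%) and 277 lower (2.21%) at an unadjusted p under 0.05, and limma voom and DESeq2 called 0. The 5 smallest p among expressed genes belonged to Scara3, Clec10a, RT1-Da, Aif1 and RT1-Ba, all lower. Clec10a (NM_022393), a sugar-binding receptor gene of macrophages, stood at 9.27, 9.07, 5.01, 7.91 and 6.68 CPM in NT3 week 11 ganglia, against 8.21, 6.56, 7.64, 5.47 and 8.94 CPM in NT3 week 5 ganglia. The NT3 groups overlapped with a fold change of 0.04 (SE 0.21), while vehicle rats ranged from 6.4 to 15.9 CPM at week 11 and 3.38 to 5.02 CPM at week 5, and the difference between arms was -1.16 (SE 0.30). RT1-Da (NM_001008847), a class II antigen presentation gene, was at 14.5, 19.3, 8, 19.8 and 10.9 CPM in NT3 week 11 ganglia, against 16, 13.3, 15.7, 17.4 and 15.3 CPM in NT3 week 5 ganglia. Vehicle rats ranged from 13.6 to 169 CPM at week 11 and 5.74 to 10.5 CPM at week 5, and the difference of -2.63 (SE 0.68) was -1.26 without rats 8 and 27.

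RT1-Ba, another class II gene, gave -2.0 (SE 0.54), and -1.09 without those 2 rats. Aif1, which encodes the microglia and macrophage protein Iba1, gave -1.37 (SE 0.36), and Scara3, a scavenger receptor gene, -0.52 (SE 0.13). Among the macrophage list all 24 differences were negative, 13 of them under the unadjusted 0.05 level, where 2.21% of all tested transcripts were lower. The median was -0.91, or -0.54 with 23 of 24 negative when rats 8 and 27 were left out. The count of 13 belongs to the fit with those rats. Without them the unadjusted edgeR p rose from 0.04 to 0.2 for C1qa and from 0.02 to 0.074 for Cd68. It stayed under 0.05 for Aif1 (0.00044) and Clec10a (0.00093). Fam180a, a secreted protein gene, gave -1.21 (SE 0.33) and Crispld2 -0.70 (SE 0.22). In NT3 ganglia their own fold changes were -0.07 (SE 0.23) and -0.24 (SE 0.16). Mobp, a brain myelin gene that is a sign of carried-over central tissue, was at 0.799 to 1.1 CPM at week 11 and 0.729 to 1.32 CPM at week 5 in NT3 ganglia, and its difference between arms of -4.13 (SE 1.43) was 0.09 without rats 8 and 27. Mobp was also counted in the list of myelinating Schwann cell markers.

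The transcripts called higher over time in vehicle ganglia were followed in NT3 ganglia. Of these 104, 95 had a positive fold change in NT3 ganglia, with a median of 0.26 and a range of -0.15 to 0.86. At an unadjusted p under 0.05, 13 were higher, where 1.23% of all tested transcripts were. The same list, which the vehicle libraries chose, had a median of 1.26 in vehicle and 0.32 in sham ganglia, where 94 were positive. Its mean log2 CPM was 2.62 to 3.31 in NT3 week 11 rats and 2.50 to 3.02 in NT3 week 5 rats, and Lyl1 was among its members. For NT3 minus sham edgeR called 0 transcripts (0%), with 106 higher (0.844%) and 80 lower (0.637%) at an unadjusted p under 0.05, and DESeq2 called 0. Limma voom called 5, with fold changes of its own fit: Wdr93 (2.96, SE 0.52), Chaf1b (0.86, SE 0.16), Tp53inp2 (0.32, SE 0.06), Mcu (0.50, SE 0.09) and Stk31 (-2.03, SE 0.38), with adjusted p between 0.0359 and 0.037. The edgeR differences were smaller, at 1.74, 0.56, 0.22, 0.28 and -1.44 in the same order. These genes are named because the count is small, after their values were seen.

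**Figure D5:**
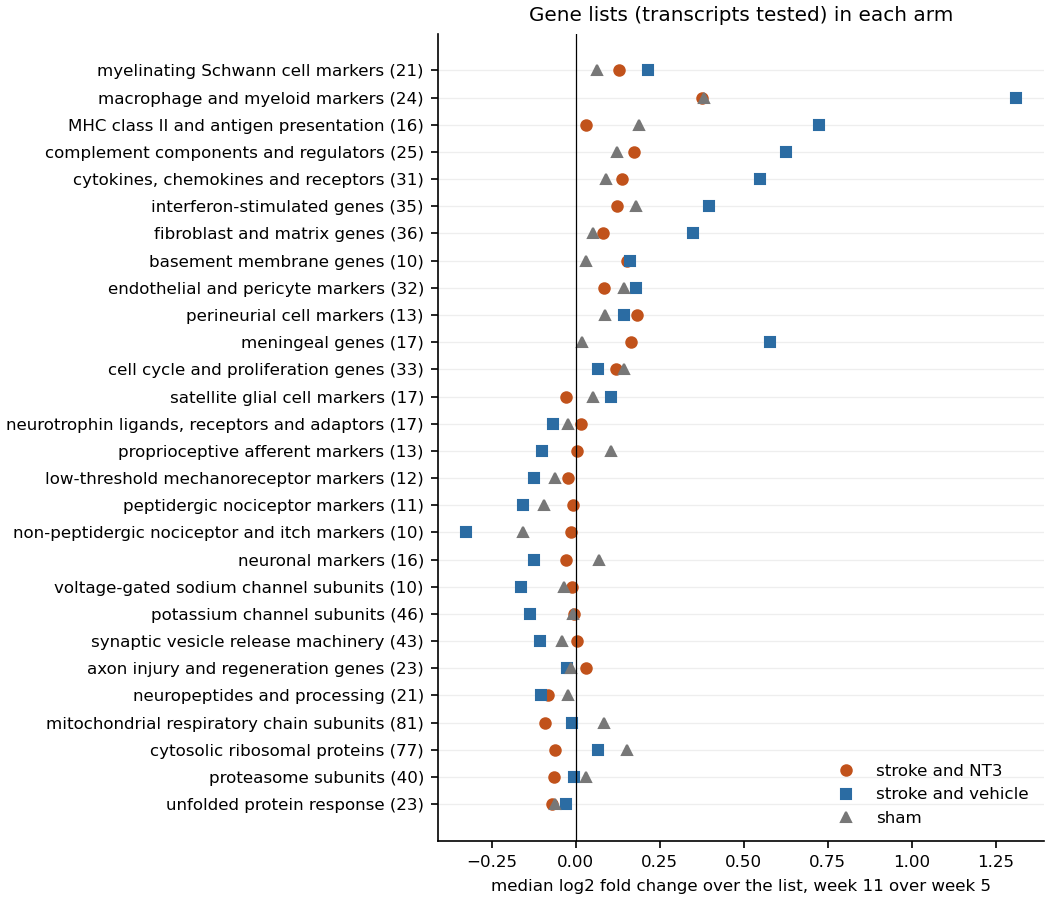
Median log2 fold change of week 11 over week 5 (horizontal axis) for 28 gene lists (one line each, with the number of transcripts tested), for NT3, vehicle and sham ganglia. NT3 medians lie between -0.09 and 0.38, and the vehicle median exceeds the NT3 median most for macrophage genes (1.31 against 0.38 for NT3).

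Interferon-stimulated and inflammatory genes lay above the week 5 level in NT3 ganglia by small amounts. Interferon genes had 31 of 35 positive and a median of 0.12 (vehicle 0.40, sham 0.18), and cytokine and chemokine genes 27 of 31 and 0.14 (vehicle 0.55, sham 0.09), with none under the unadjusted 0.05 level. Without rat 83 the interferon median was 0.028, and the cytokine median was 0.092 without rat 69 and 0.258 without rat 71. Ifit3, an antiviral effector, was at 2.77, 1.74, 1.47, 7.86 and 4.11 CPM at week 11 and 2.37, 1.94, 1.61, 3.04 and 1.38 CPM at week 5, 0.78 (95% interval -0.02 to 1.58). The chemokine gene Cxcl10 was at 4.58, 6.44, 4.41, 20.1 and 9.59 CPM at week 11 and 4.96, 5.2, 4.33, 7.66 and 6.29 CPM at week 5, 0.66 (95% interval -0.01 to 1.32). Both were highest in rat 83 and next highest in rat 89 at week 11, and the other 3 week 11 rats lay within the week 5 range. Without rat 83 their fold changes were 0.28 and 0.14.

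Of 8 tested neutrophil and mast cell genes 3 were positive and 5 negative, with a median of -0.05. At an unadjusted p under 0.05, 2 neutrophil genes were lower, where 0.342% of all tested transcripts were. S100a9 (NM_053587), a calcium-binding protein gene of neutrophils, was at 0.479, 0.893, 0.322, 0.659 and 2.28 CPM in NT3 week 11 ganglia, against 2.54, 1.07, 2.04, 4.28 and 2.48 CPM in NT3 week 5 ganglia. The groups overlapped through week 11 rat 89 alone, with a fold change of -1.44 (95% interval -2.48 to -0.39). Its partner S100a8 was at 0.586, 0.893, 0.414, 0.659 and 2.23 CPM at week 11 and 1.71, 1.51, 1.46, 1.94 and 2.02 CPM at week 5, -0.87 (95% interval -1.62 to -0.12). Without rat 89, whose library held red cell transcripts, the fold changes were -2.07 and -1.43. Zap70, a signalling kinase gene of T cells, was at 1.49, 1.6, 1.24, 1.21 and 1.31 CPM at week 11 and 1.27, 1.94, 1.8, 2.24 and 2.08 CPM at week 5, -0.44 (95% interval -0.82 to -0.07), and Fcmr, a receptor for immunoglobulin M on B cells, at 1.6, 1.08, 1.98, 2.2 and 1.14 CPM at week 11 and 3.2, 3.06, 3.02, 2.54 and 1.67 CPM at week 5, -0.76 (95% interval -1.28 to -0.23). Of the 8 tested T and NK cell genes 3 were positive, with a median of -0.06. Of the 5 tested B and plasma cell genes 0 were, with a median of -0.07 and none under the unadjusted 0.05 level. Fcmr is not in that list. The mean log2 CPM of the list was low and overlapped, at -0.525 to -0.135 at week 11 and -0.451 to 0.037 at week 5.

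Red cell genes were high in 1 library. Slc4a1 (NM_012651), the anion exchanger of red cells, was at 0.16, 0.141, 0.184, 0.33 and 30.3 CPM in NT3 week 11 ganglia, against 0.331, 0.827, 0.487, 0.348 and 0.462 CPM in NT3 week 5 ganglia. Its fold change of 3.62 (95% interval 1.14 to 6.09) became -1.28 without rat 89. Alas2, a haem synthesis enzyme gene, was at 0.852, 0.752, 0.184, 0.55 and 14.1 CPM at week 11 and 0.441, 2.04, 0.779, 0.796 and 1.33 CPM at week 5, and Hbb, a haemoglobin chain gene, at 11.5, 10.6, 5.61, 6.59 and 140 CPM at week 11 and 8.1, 23.7, 10.5, 7.26 and 28.4 CPM at week 5. Tal1, a blood cell and vessel transcription factor gene with one of the smallest p-values, was also highest in rat 89 at 4.05, 5.08, 3.54, 4.95 and 8.91 CPM at week 11 and 3.64, 3.45, 2.19, 2.99 and 3.92 CPM at week 5. Its fold change was 0.71 (95% interval 0.29 to 1.13), and 0.44 without that rat.

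Connective tissue and vessel genes lay slightly above the week 5 level. Fibroblast and matrix genes had 23 of 36 positive and a median of 0.08. At an unadjusted p under 0.05, 3 of them were higher (Col1a1, Tnc and Thbs2), where 1.23% of all tested transcripts were. Basement membrane genes had 8 of 10 positive and a median of 0.15, and endothelial and pericyte genes 22 of 32 and 0.09. The fibroblast and matrix median was 0.005 without rat 69, and the endothelial and pericyte median 0.029 without rat 61. Col1a1 (NM_053304), a chain of type I collagen, was at 218, 338, 244, 265 and 224 CPM in NT3 week 11 ganglia, against 178, 190, 188, 198 and 247 CPM in NT3 week 5 ganglia. Rat 69 was the highest, rat 85 of week 5 lay above 3 week 11 rats, and the fold change was 0.36 (95% interval 0.03 to 0.70), or 0.24 without rat 69. Col18a1 (NM_053489), a collagen of basement membranes, was at 121, 155, 114, 108 and 97.9 CPM in NT3 week 11 ganglia, against 79.3, 93.9, 89.5, 90.7 and 96.4 CPM in NT3 week 5 ganglia. These groups did not overlap, though rat 89 of week 11 and rat 85 of week 5 lay close, with a fold change of 0.41 (95% interval 0.05 to 0.76), and 0.28 without rat 69.

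Tnc, the matrix protein tenascin C, had 0.36 (95% interval 0.02 to 0.70) and Thbs2, thrombospondin 2, 0.55 (95% interval 0.02 to 1.07). Thbs2 was at 43.6, 91.6, 57.7, 64.6 and 63.6 CPM at week 11 and 47.5, 32.3, 27.5, 31.2 and 81.7 CPM at week 5. The highest week 5 value belonged to rat 85, without which the fold change was 0.88. The highest week 11 value belonged to rat 69, without which the fold changes of Thbs2 and Tnc were 0.38 and 0.26. Vwf, von Willebrand factor of endothelium, was at 54.9, 69.8, 51.1, 56.7 and 67.2 CPM at week 11 and 58.6, 43.4, 40.2, 47.2 and 49.7 CPM at week 5, 0.33 (95% interval 0.04 to 0.62). Without rat 69 that fold change was 0.26. Acta2, the actin of smooth muscle, lay lower, at 17.4, 20.8, 18.5, 25.2 and 16.4 CPM at week 11 and 36.8, 30.3, 17.4, 23.8 and 25.7 CPM at week 5, -0.45 (95% interval -0.95 to 0.06). Perineurial sheath genes had 11 of 13 positive and a median of 0.18, among them the hedgehog targets Gli1 at 0.38 (SE 0.20) and Ptch1 at 0.30 (SE 0.16), which were 0.17 and 0.20 without rat 69. Meningeal genes, a sign of attached membrane, had a median of 0.17 in NT3 ganglia and 0.58 in vehicle ganglia, and their mean log2 CPM ran from 2.61 to 4.06 at week 11 and 2.84 to 3.87 at week 5. Without rat 69 the meningeal median was 0.034, and without rats 61, 69 and 89 it was -0.089. The part of attached membrane in the connective tissue values was not tested.

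Among expressed genes with a symbol, those with the smallest p that were higher at week 11 were of mixed kinds. Ptprv (NM_033099), a receptor-type phosphatase gene, was at 1.22, 1.46, 1.47, 1.7 and 1.37 CPM in NT3 week 11 ganglia, against 0.827, 0.729, 0.487, 0.697 and 1.1 CPM in NT3 week 5 ganglia, without overlap, a fold change of 0.92 (95% interval 0.38 to 1.46). Lyl1 (NM_001007677), a transcription factor gene of blood cells and vessels, was at 1.81, 3.05, 1.7, 1.81 and 2.23 CPM in NT3 week 11 ganglia, against 1.21, 1.22, 1.12, 1.19 and 1.15 CPM in NT3 week 5 ganglia. The week 5 values were tightly grouped and all week 11 values lay above them, 0.85 (95% interval 0.35 to 1.34), and 0.66 without rat 69. Kremen1 (NM_053649), a receptor that dampens Wnt signals, was at 14.8, 17.6, 16.5, 15.7 and 15.4 CPM in NT3 week 11 ganglia, against 14, 12.4, 11.3, 12.5 and 13.6 CPM in NT3 week 5 ganglia, 0.33 (95% interval 0.13 to 0.52). Here too the weeks did not overlap.

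Col7a1 (NM_001106858), the anchoring collagen of epithelia, was at 6.66, 5.55, 4.87, 5.33 and 5.6 CPM in NT3 week 11 ganglia, against 2.31, 2.43, 1.8, 2.94 and 3.98 CPM in NT3 week 5 ganglia. It had the largest fold change of the non-overlapping genes described here, 1.06 (95% interval 0.35 to 1.77), and sham ganglia showed 1.15 (SE 0.38) over the same weeks. Akt2, a kinase of insulin signalling, was at 51, 53.3, 57.1, 46.2 and 54 CPM at week 11 and 42.4, 44.2, 43.1, 42.8 and 44.6 CPM at week 5, 0.27 (95% interval 0.09 to 0.45). Lfng, which tunes Notch receptors, had 0.39 (95% interval 0.12 to 0.66), and Nuak1, a stress kinase gene, 0.30 (95% interval 0.10 to 0.50). Slc44a4, a choline transporter-like gene, had 0.50 (95% interval 0.18 to 0.82), Rgs16, a brake on G proteins, 0.69 (95% interval 0.24 to 1.13), and Pcdhga12, a cell adhesion gene of the clustered protocadherins, 0.76 (95% interval 0.22 to 1.30). The clustered protocadherin genes share exons, so counts of Pcdhga12 are uncertain.

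The genes with the smallest p that were lower at week 11 mostly had low counts. Sfrp4 (NM_053544), a secreted Wnt antagonist, was at 3.41, 2.87, 3.22, 2.8 and 2.68 CPM in NT3 week 11 ganglia, against 4.24, 3.65, 3.55, 4.88 and 3.98 CPM in NT3 week 5 ganglia, each week 11 value below each week 5 value. Its fold change was -0.44 (95% interval -0.68 to -0.19). Selenov (NM_001166396), a selenoprotein gene, was at 0.799, 1.27, 1.01, 1.76 and 0.799 CPM in NT3 week 11 ganglia, against 2.26, 2.43, 1.85, 2.39 and 2.19 CPM in NT3 week 5 ganglia, again without overlap, -0.98 (95% interval -1.65 to -0.30). The difference from the change in sham ganglia was -1.65 (SE 0.48) for Selenov and -0.57 (SE 0.18) for Sfrp4. Hpx, which encodes the haem carrier haemopexin, was at 1.17, 1.13, 1.29, 1.32 and 0.799 CPM at week 11 and 1.82, 1.75, 1.36, 1.64 and 1.67 CPM at week 5, -0.52 (95% interval -0.91 to -0.14), also with no overlap. Smim5 had -0.67 (95% interval -1.09 to -0.26), C5h9orf43 -0.39 (95% interval -0.61 to -0.17) and Loxl4, a collagen cross-linking enzyme gene, -0.52 (95% interval -0.91 to -0.14).

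Genes of cell division lay above the week 5 level in 28 of 33 cases with a median of 0.12, close to the sham median of 0.14, and 0.072 without rat 89. Rrm2, a subunit of the enzyme that makes DNA building blocks, was at 9.27, 10.2, 8.69, 9.56 and 13.7 CPM at week 11 and 9.7, 7.68, 7.59, 6.87 and 7.96 CPM at week 5, 0.37 (95% interval 0.13 to 0.61), and 0.24 without rat 89, the highest of the 10. Ube2c, a mitotic ubiquitin enzyme gene, had 0.49 (95% interval 0.08 to 0.91), and the proliferation marker Mki67 was at 5.48, 4.23, 6.21, 7.42 and 12.1 CPM at week 11 and 7.61, 4.28, 4.67, 4.68 and 7.85 CPM at week 5, 0.28 (SE 0.29), and 0.005 without rat 89. Cry1, a repressor of the circadian clock, was at 14.3, 18.4, 11.2, 10.1 and 12.6 CPM at week 11 and 9.2, 11.8, 10.2, 8.16 and 13 CPM at week 5, 0.35 (95% interval 0.04 to 0.66), and 0.19 without rat 69. The clock gene list had a median of 0.04, and the hour at which ganglia were taken is not given in the sources used here.

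Genes of basic cell machinery lay a little below the week 5 level, in most members and by small amounts. Mitochondrial respiratory chain genes had 73 of 81 negative and a median of -0.09, proteasome genes 37 of 40 and -0.07, ribosomal protein genes 58 of 77 and -0.06, and unfolded protein response genes 15 of 23 and -0.07, none of them with a member under the unadjusted 0.05 level. In 5 respiratory chain and 2 proteasome genes all 5 week 11 values lay below all 5 week 5 values, where 0.51% of all transcripts did. Cox8a (NM_134345), a subunit of cytochrome oxidase, was at 143, 137, 136, 141 and 129 CPM in NT3 week 11 ganglia, against 157, 150, 168, 158 and 149 CPM in NT3 week 5 ganglia, -0.19 (95% interval -0.41 to 0.03). Ndufa9, a subunit of complex I, was at 148, 149, 149, 140 and 147 CPM at week 11 and 171, 161, 166, 154 and 152 CPM at week 5, -0.13 (95% interval -0.29 to 0.03), and Psmb7, a catalytic proteasome subunit, at 244, 270, 258, 248 and 269 CPM at week 11 and 314, 281, 286, 275 and 272 CPM at week 5, -0.15 (95% interval -0.35 to 0.05).

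The mean log2 CPM over the proteasome list was 6.78, 6.82, 6.79, 6.79 and 6.83 in NT3 week 11 ganglia, against 6.89, 6.83, 6.89, 6.86 and 6.85 in NT3 week 5 ganglia, without overlap, as the highest week 11 score was 6.826 and the lowest week 5 score 6.830. For the respiratory chain it was 6.50, 6.57, 6.57, 6.46 and 6.50 in NT3 week 11 ganglia, against 6.58, 6.58, 6.65, 6.64 and 6.55 in NT3 week 5 ganglia, with overlap. Genes of 1 complex share libraries and scaling, so they are not independent. The respiratory chain medians in the other arms were -0.01 in vehicle and 0.09 in sham ganglia. Skeletal muscle genes, listed as a sign of attached muscle, had a mean log2 CPM of 1.14 to 1.47 at week 11 and 1.19 to 1.66 at week 5. Central nervous tissue genes had 2.72 to 3.09 and 2.63 to 3.01, with overlap between weeks in both lists. The muscle list also holds Pvalb and the central nervous list Slc17a7, both described above in sensory neurons, so the scores do not measure attached tissue alone.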

How the data were processed

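RNA was sequenced from poly-A enriched, stranded libraries of whole C6 to C8 ganglia of 29 rats, with RNA integrity numbers over 7.6 per the labels. The submitters' processing notes name bcl2fastq 1.8.4, TopHat2, Picard, HTSeq and the build rn6 (Rnor_6.0). The files deposited by the authors hold raw read counts per RefSeq transcript, 18092 in each larger file, with duplicates removed per the file names. A smaller table of 15308 transcripts held identical counts. Symbols came from a RefSeq table of a later rat assembly (GRCr8), which served for names alone, and 17090 accessions matched.

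The analysis used edgeR 4.0.16 in R 4.3.3: filterByExpr (minimum count 10, total 15), TMM scaling, a quasi-likelihood fit of 6 group means to 29 libraries, contrasts tested two-sided, and Benjamini-Hochberg adjustment over 12556 transcripts at 0.05. Standard errors were the log2 fold change over the root of the F statistic. CPM used TMM-scaled library sizes, and list scores are means of log2 CPM with a prior count of 2. The common biological coefficient of variation was 0.185. DESeq2 1.42.0 and limma 3.58.1 (voom with quality weights) were alternatives, beside scaling, filtering, a covariate and left-out libraries. Library measures were tested by exact permutation, two-sided, over 6 measures, and the adjusted p ran from 0.57 to 0.937.

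Lists were described by counts and medians, without a test. Genes were named by these rules: the smallest p in each direction among those averaging at least 1 CPM, up to 3 members of each list by p, a set of known markers, and the smallest p of each difference between arms. Other known markers were added for their role, and some members of the lists are not reported here. The comparison, lists and markers were chosen with earlier results of these data known. Each rat gave 1 library, so p-values measure the spread between rats.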

Additional observations from a re-analysis of the deposited data

Results flagged for a closer look

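Within groups of 5 NT3 libraries, the gap of the highest or lowest rat to its nearest neighbour, as a share of the group's range, passed Dixon's 95% critical value of 0.710 in 26 of 292 groups of values (8.9%). A rate of 1 in 20 would hold for independent, normally distributed values not picked for their spread. The groups here are of genes and lists named in the text and share the same rats, so the rates cannot be set against each other. Rat 69 of week 11 stood apart in Nefm (2780 CPM, lowest, others 4440 to 4800, ratio 0.822), Ntrk2 NM_001163168 (292 CPM, lowest, others 332 to 339, ratio 0.851), Piezo1 (31.3 CPM, highest, others 24.2 to 26, ratio 0.746), Scn1a (174 CPM, lowest, others 344 to 406, ratio 0.733), the potassium channel list (4.44 mean log2 CPM, lowest, others 4.72 to 4.80, ratio 0.775), the sodium channel list (7.10 mean log2 CPM, lowest, others 7.59 to 7.75, ratio 0.766), the list of non-myelinating Schwann cell genes (6.49 mean log2 CPM, lowest, others 6.67 to 6.70, ratio 0.829) and the ribosomal protein list (6.82 mean log2 CPM, highest, others 6.70 to 6.74, ratio 0.715). Rat 89 of week 11 stood apart in Alas2 (14.1 CPM, highest, others 0.184 to 0.852, ratio 0.952), Hbb (140 CPM, highest, others 5.61 to 11.5, ratio 0.956), Hspa8 (1390 CPM, highest, others 1210 to 1260, ratio 0.722), S100a8 (2.23 CPM, highest, others 0.414 to 0.893, ratio 0.736), Slc4a1 (30.3 CPM, highest, others 0.141 to 0.33, ratio 0.994), Tal1 (8.91 CPM, highest, others 3.54 to 5.08, ratio 0.713) and the red cell list (4.28 mean log2 CPM, highest, others -0.10 to 0.60, ratio 0.84). Rat 83 of week 11 stood apart in C5h9orf43 (6.54 CPM, highest, others 4.46 to 4.95, ratio 0.764), Ndufa9 (140 CPM, lowest, others 147 to 149, ratio 0.778) and the endothelial and pericyte list (4.15 mean log2 CPM, highest, others 3.88 to 3.95, ratio 0.725). Rat 71 of week 11 stood apart in Calb1 (4.37 CPM, highest, others 2.5 to 2.97, ratio 0.749). Rat 25 of week 5 stood apart in Pvalb (216 CPM, highest, others 160 to 170, ratio 0.821), Scara3 (75.4 CPM, highest, others 58 to 61.3, ratio 0.81) and Sox10 (91.2 CPM, lowest, others 121 to 129, ratio 0.788). Rat 61 of week 5 stood apart in the list of central nervous tissue genes (2.63 mean log2 CPM, lowest, others 2.94 to 3.01, ratio 0.799). Rat 62 of week 5 stood apart in Csrp3 (2.49 CPM, highest, others 0.341 to 0.937, ratio 0.723). Rat 85 of week 5 stood apart in Cd68 (10.2 CPM, highest, others 4.93 to 5.95, ratio 0.806) and Col1a1 (247 CPM, highest, others 178 to 198, ratio 0.71).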

How the results depend on the processing

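No setting called a transcript between NT3 week 11 and week 5, or in the change over time in NT3 minus that in vehicle. Limma voom called 5 in the change in NT3 minus that in sham, where edgeR called 0. The number of transcripts at an unadjusted p under 0.05 (198, of which 155 higher and 43 lower) was 670 with limma voom (402 higher, 268 lower), 526 with only the groups compared in the fit (309 higher, 217 lower), 347 with the percentage of reads outside features as a covariate (247 higher, 100 lower), and 98 without rats 61, 69 and 89 (44 higher, 54 lower). The lower count was 86 without a filter on low counts and 67 without rats 8 and 27. With 1 library left out it ran from 128 to 256 in all, from 74 to 208 higher and from 25 to 77 lower. The total of 128 and the 74 higher came without rat 69, 96 higher without rat 56, 25 lower without rat 36, 70 lower without rat 85 and 77 lower without rat 89. The cause was not tested. The difference between the weeks (week 11 minus week 5) ran from -527900 to 476400 in assigned reads, from -1.099 to 0.2205 percentage points in reads outside features, and from -11.1 to 6.765 on the first principal component.

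Fold changes near 0 and those of red cell genes changed sign under some settings. Without rats 61, 69 and 89, an alternative chosen after seeing the data, these were Aif1 (-0.11), Alas2 (-1.15), Atf3 (-0.056), Hbb (-1.09), Ngfr (0.034), Slc4a1 (-1.14) and Spp1 (-0.026). With limma voom they were Aif1 (-0.025), Alas2 (-0.31), Hbb (-0.082), Nefm (0.004) and Slc17a7 (-0.001), without a filter Aif1 (-0.002) and Kcna2 (-0.016), and with the covariate Nefm (0.005). With 1 library left out, the fold changes that crossed 0 were those of Aif1 (-0.063 to 0.11), Alas2 (-0.896 to 1.94), Atf3 (-0.089 to 0.338), Clec10a (-0.046 to 0.173), Fabp7 (-0.225 to 0.084), Fam180a (-0.291 to 0.072), Hbb (-0.859 to 1.46), Kcna2 (-0.099 to 0.12), Mobp (-0.071 to 0.15), Mrgprd (-0.033 to 0.163), Nefm (-0.151 to 0.07), Ngfr (-0.09 to 0.045), Ntrk2 NM_001163168 (-0.028 to 0.051), Ntrk2 NM_012731 (-0.003 to 0.133), RT1-Ba (-0.172 to 0.098), RT1-Da (-0.239 to 0.067), Ret NM_001110099 (-0.086 to 0.023), Ret NM_012643 (-0.132 to 0.009), Scara3 (-0.086 to 0.03), Scn10a (-0.044 to 0.111), Scn1a (-0.221 to 0.072), Slc17a7 (-0.027 to 0.054), Slc4a1 (-1.28 to 3.95), Spp1 (-0.035 to 0.074) and Trpv1 (-0.054 to 0.065). List medians of the myelin (0.10 to 0.19), macrophage (0.22 to 0.48), respiratory chain (-0.11 to -0.07) and proteasome genes (-0.08 to -0.05) kept their sign in 19 alternatives each, and that of the proprioceptor markers (-0.04 to 0.04) turned in 13 of 19. With 1 library left out, the medians nearest 0 of other lists described as shifted were 0.005 for fibroblast and matrix, 0.028 for interferon, 0.029 for endothelial, 0.034 for meningeal, 0.009 for glucocorticoid, 0.011 for immediate early, -0.032 for ribosomal, -0.026 for unfolded protein response and -0.035 for neuropeptide genes. The red cell median was -0.86 without rat 89.

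No paired analysis was possible because the rats of each week were different animals and the replicate numbers were given in accession order. Intervals were narrow less often at low counts: the 95% interval lay within 1.5-fold for 81% of the 11663 transcripts averaging at least 1 CPM, against 75.6% of all.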

Other observations

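Some gene groups outside the comparisons above lay mostly on one side of the week 5 level in NT3 ganglia, and none held a called transcript. Axon guidance genes (ephrins, semaphorins, netrins and their receptors) were positive in 37 of 51 cases with a median log2 fold change of 0.04. Sema4c, a semaphorin, was at 88.7, 105, 105, 97.5 and 84.7 CPM at week 11 and 80.7, 73.6, 82.1, 89.8 and 87.1 CPM at week 5, 0.22 (95% interval 0.01 to 0.43), and Efnb1, an ephrin, at 43, 56.5, 39, 45.1 and 39.1 CPM at week 11 and 30.4, 41.6, 41, 33.2 and 37 CPM at week 5, 0.28 (95% interval 0.00 to 0.56), and 0.17 without rat 69. Both overlapped between weeks. Igfbp3, which binds insulin-like growth factors, was at 30.9, 39.8, 24.8, 30.9 and 33.2 CPM at week 11 and 29.3, 20.5, 21, 17.6 and 29.7 CPM at week 5, with 0.43 (95% interval 0.09 to 0.78) in NT3 ganglia, 0.39 in vehicle and 0.48 in sham ganglia.

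Genes induced by glucocorticoids were positive in 16 of 19 cases, median 0.10, and immediate early genes in 24 of 35, median 0.11, none under the unadjusted 0.05 level. Both medians were lowest without rat 36, at 0.009 and 0.011. Cebpd, a stress-induced transcription factor gene, had 0.40 (95% interval -0.11 to 0.91), and Nr4a1, an activity-induced nuclear receptor gene, 0.31 (95% interval -0.02 to 0.64), or 0.15 without rat 36. Heat shock genes were positive in 6 of 18 cases, median -0.07 (-0.033 without rat 69), with the chaperone gene Hspa8 at -0.10 (95% interval -0.27 to 0.06).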
